A study of Mus musculus with 9 samples.

Results

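The long circRNAs of the embryonic mouse cortex described here are the entries of the deposited count table with a counted length of 2000 bases or more. They are 219 of the 5281 circRNAs of the table, or 4.17% of the 5254 that remain once 27 entries with very high counts are set aside. Members were chosen by counted length alone, and no test of change between cell types entered the choice. The counted length sums exon and intron features that passed the expression threshold of the paper. Level therefore entered the choice through that threshold. The study sorted 3 cell types from the lateral cortex of E14.5 embryos of C57BL/6 mice heterozygous for both Btg2-RFP and Tubb3-GFP, with 3 libraries for each. Proliferative progenitors (PP) carried neither reporter, differentiative progenitors (DP) carried RFP without GFP, and newborn neurons (N) carried GFP whether or not RFP was present. The paper states this genotype for the pregnant mice, and PP were defined by the absence of signal. Total RNA was digested with RNase R, an exonuclease that degrades linear RNA, before strand-specific sequencing.

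A circRNA forms when the spliceosome joins the 3' end of an exon to the 5' end of the same or an upstream exon, a reaction called backsplicing. The resulting ring has no free end, resists exonucleases and accumulates in the nervous system, where many neuronal genes give rise to circRNAs. Most described circRNAs consist of a few internal exons, and Cdr1as, a long circRNA with many binding sites for miR-7, is the best known in the brain.

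The backsplice junctions of 12 members that carry the results below are printed to show what joins each ring. Each is the mm9 sequence of the transcribed strand, 15 bases from the end of the last exon followed by 15 bases from the start of the first, and capitals mark the 2 bases on either side of the junction. Numbers after a gene name are the last digits of the identifiers of the table, which begin with CiCo_mm9_circ.
Myt1l 001319: cctcacacaccgcAGAAgaccatcaaatga
Robo2 002429: ggaacaagaaaatGGCTcctccacagtttg
Mtap2 000359: tgagaaggaaaaaAGATttacttacagcct
Tnrc6c 000818: cactgctcgggccAGGGtaaaagaacagga
Gpr98 001695: tcatcattatctcAGGTtaatgtcacagtg
Notch2 004214: ggatacagatgtgAGGTaaacgatgtacag
Ect2 004031: tgtaaggcagatgCTCCttcatcaagtagt
Cdon 006580: ccggaacaacaatAGTAagcggaggcctgg
Ptprz1 005387: tctttccaatttcAGGAggaagaatatgga
Tcf20 002180: atcgccagagagaTGGAgggctgctggcct
Jarid2 001619: tacacaacgggcaCGGGcttcttggtaatg
Cdr1as 006933: gtctgccgtatccAGGGtttccagtggtgc

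Myt1l 001319 lies at chr12:30511731-30580179 (+) and Robo2 002429 at chr16:73928269-73985957 (-). Mtap2 000359 lies at chr1:66458981-66463124 (+), Tnrc6c 000818 at chr11:117562039-117584864 (+) and Gpr98 001695 at chr13:81557995-81583577 (-). Notch2 004214 lies at chr3:97921116-97928256 (+), Ect2 004031 at chr3:27014318-27049102 (-) and Cdon 006580 at chr9:35259630-35299509 (+). Ptprz1 005387 lies at chr6:22949200-22966230 (+), Tcf20 002180 at chr15:82681943-82687714 (-), Jarid2 001619 at chr13:44943649-44980249 (+) and Cdr1as 006933 at chrX:58436423-58439349 (+). The genome carried AG directly before the first base and GT directly after the last base in 219 of 219 members, and in 5032 of 5035 other circRNAs. These are the dinucleotides of a 3' and a 5' splice site, and they lie outside the printed sequences.

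Nearly all members came from protein-coding genes. Both ends coincided with ends of annotated exons of a sense gene in 210 members. Another 6 lay in sense within a gene with other ends, 2 lay between genes, and 1, Cdr1as, was antisense to Cdr1. The 216 members with a sense gene belonged to 158 genes, of which 156 were protein-coding. A single member came from 120 genes, and 38 genes gave 2 or more. Cdon, a co-receptor for Hedgehog ligands, gave 7 members, the neurodevelopmental gene Auts2 gave 6, Tnrc18 gave 5 and the transcription factor gene Nfix gave 4. Members overlapped others in 92 cases and fell into 165 groups without overlap between them. Of 53 pairs in which 1 member lay within a longer one, the inner member had no more counts than the outer in all 9 libraries in 53 pairs. Overlapping members cover the same bases and are not independent measurements.

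The counted length was more often made of exons and introns than of exons alone. A transcript with exon ends at both ends of the circRNA existed for 208 members, and the counted length of each was broken down into its annotated exons and whole introns. It equalled the sum of the exons alone in 70 members, or 32.0%, against 87.9% of the other circRNAs. It equalled the exons plus at least 1 whole intron in 135 members, or 61.6%, against 8.42% of the others. In 3 members some exons were left out. Of the 135 with introns, 131 had 1 possible combination, with a median of 2 counted introns of 5 in the span, and introns made up a median of 69.5% of the counted length, from 2.95% to 99.5%. The annotated exons alone reached 2000 bases in 95 of the 208, and the exons of 112 members with introns added up to fewer. The table gives 1 count for each circRNA, so that reads on exons and reads on introns cannot be told apart. The paper detected no intron in the circRNAs it cloned, nor in others with predicted introns. It concluded that genic circRNAs are primarily exonic and that intronic reads may come from lariats. Introns stayed in its list of expressed features but were left out of its later analyses. A counted intron thus does not show that the ring contains it.

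**Figure D1:**
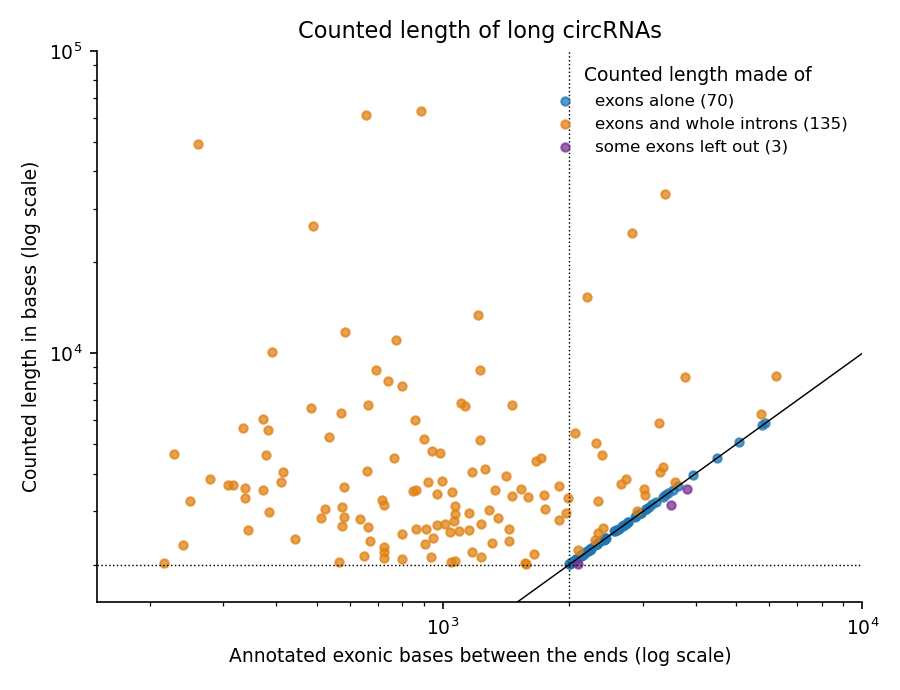
Each point is 1 of the 208 long circRNAs with a matching transcript, with its annotated exonic bases on the horizontal axis and its counted length on the vertical axis (both in bases, log scales). The diagonal marks equal values and dotted lines mark 2000 bases. The 70 members of exons alone lie on the diagonal, whereas the 135 with whole introns lie above it, up to 63291 bases.

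The longest member, Nfix 006344, had a counted length of 78705 bases, its whole span, and its ends matched no transcript, so that it was not broken down. Meis2, a homeobox transcription factor gene, gave the next 3 (003368, 003366 and 003365), of 63291, 61463 and 49069 bases, with only 888, 655 and 261 annotated exonic bases. Cdon 006580 followed with 33674 bases, of which 3389 were exonic in 17 exons. Ranked by annotated exons, the order was different. Zfp462 004623, from a zinc finger gene, held 6232 exonic bases in 5 exons, of which 1 exon had 5594. Tcf20 002179 and Tcf20 002180, from a transcriptional co-regulator gene, held 5866 bases in 2 exons and 5772 in 1. Bptf 000778, from a chromatin remodelling gene, held 5745 bases in 17 exons, and Heatr5b 002831 held 5072 in 30.

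Members of exons alone differed in how their exons added up. In 39 of the 70, 1 exon supplied most of the exonic bases, and 6 of these were single exons. In 27 of the 70, 10 exons or more were joined. The median of the largest exon was 1588 bases among the 70, 232 bases among the 135 with introns and 181 bases among the other circRNAs. Members had a median of 6 exons against 3 in the others. The first exon was exon 2 of the transcript in 79 of 208 members (38.0%) and in 29.5% of the others, and the annotated start codon lay inside 48 of 198 members with coding bases (24.2%) and 14.5% of the others. The median GC content of the exons was 51.9% (quartiles 48.1 and 55.6) in members and 48.5% (44.4 and 52.8) in the others. The introns flanking members had medians of 8530 bases upstream and 4154 downstream, against 7268 and 5568 for the others. These are descriptions, and longer circRNAs have more room for a start codon and for more exons.

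The length limit itself fell within a continuum. Just under it lay Rmst 000720 (1992 bases, 6.72 RPKM), Tead2 005903 (1995 bases, 13.8 RPKM) and Fxr2 001036 (1997 bases, 18.1 RPKM). Just above it lay 6330407J23Rik 000540 (2007 bases, 22.4 RPKM), Cabin1 000647 (2008 bases, 8.65 RPKM) and Akap6 001386 (2009 bases, 4.02 RPKM).

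Total counts ranged from 2962787 to 8015311 per library, but most fell on the entries set aside, and between 83572 (PP replicate 3) and 287983 (N replicate 2) counts remained for all other circRNAs. Levels in CPM are counts scaled to effective library sizes from TMM, RPKM are CPM per kilobase of counted length, and a floor of 3 counts corresponded to between 0.339 and 1.39 CPM per library. Such floors and the intervals given below cover counting error only. Summed over genes, circular forms of marker genes followed the labels. The sums include long circRNAs (3 for PP, 1 for DP and 5 for N), so that they are not independent of the results below. Single genes can differ from the sums. Over the circRNAs of 10 of 21 PP marker genes, the summed level was 523 to 593 CPM in PP, 320 to 348 in DP and 186 to 198 in N. Over those of 12 of 21 N marker genes it was 38.6 to 46.4, 132 to 192 and 723 to 744 CPM. Of 13 DP marker genes only Mfng had circRNAs (10.6 to 33.0, 37.8 to 45.7 and 1.98 to 13.3 CPM), and the reporter genes Btg2 and Tubb3 had none. Of 11 interneuron genes only Erbb4 had circRNAs, at 0 to 2.32 CPM in PP, 0 to 0.248 in DP and 3.45 to 6.74 in N. Of 5 Cajal-Retzius genes only Reln had 1, at 0 to 0.161, 0.124 to 0.246 and 5.31 to 6.39 CPM. No gene of the lists for endothelial cells and pericytes, microglia, erythroid cells, oligodendrocyte precursors or meninges had a circRNA in the table. In sorted bulk RNA, fewer cells of a type and less RNA per cell cannot be told apart.

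Long circRNAs, 4.17% of the entries, held 21.1% to 29.5% of the counts, and their median level per kilobase of counted length was close to that of the others. In PP replicates 1 to 3 they took 24.6%, 25.9% and 21.7% of the counts outside the high-count entries, in DP 23.3%, 24.8% and 25.7%, and in N 29.5%, 21.1% and 23.6%. The cell types overlapped, with means of 24.1% ± 2.11, 24.6% ± 1.17 and 24.7% ± 4.33 (SD, n = 3 each). Overlapping members are all included in these shares. With 1 member per overlapping group the means were 15.9% in PP, 16.9% in DP and 17.5% in N. The median level of members over all libraries was 22.1 CPM against 3.10 for the other circRNAs. Per kilobase of counted length it was 6.93 RPKM (quartiles 4.70 and 11.7) against 6.69 (3.73 and 11.9). The ratio of these medians, 1.04, was 2.50 when annotated exonic bases replaced the counted length. Counts of members with introns may include reads on introns, so that the latter ratio can overstate members. Introns enter the counted length only over the expression threshold, so that levels are not independent of the choice of members. Members of exons alone had a median of 6.40 RPKM, and those with introns had 8.49.

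**Figure D2:**
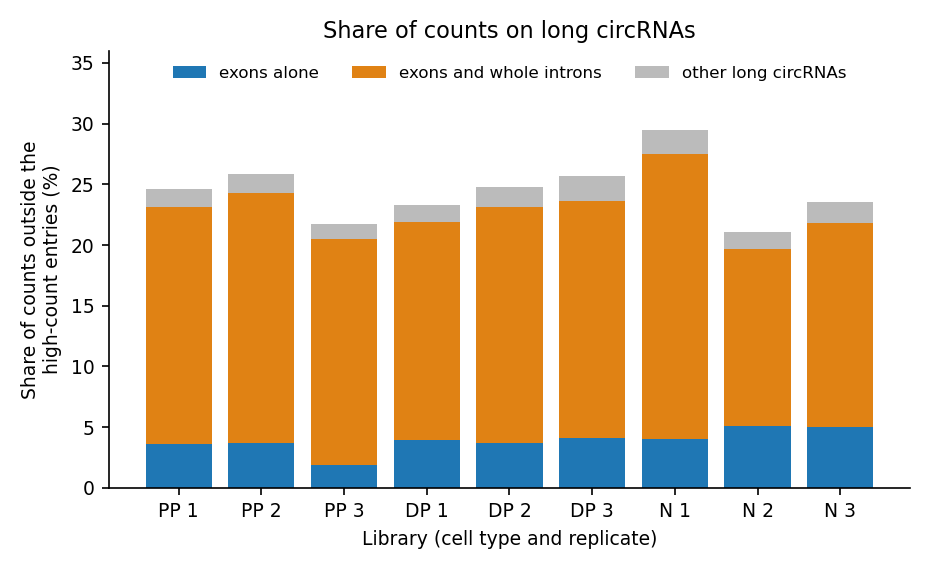
Bars show the percentage of counts outside the high-count entries that fell on long circRNAs in each of the 9 libraries, split by how their counted length was made up. Members with whole introns took 14.5% to 23.5% per library and members of exons alone 1.86% to 5.12%. Overlapping members are all included.

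Per length, the most abundant member was Igfbpl1 004600, from a gene for an insulin-like growth factor binding protein, at 48.1 RPKM over the 9 libraries. Its level was set by a single library. It had 9.34, 10.3 and 89.1 CPM in PP, 83.7, 81.1 and 95.8 in DP, and 747, 80.2 and 101 in N, so that N replicate 1 stood far above all others. Next came Tnrc18 004981 and Tnrc18 004980, which overlap, at 46.1 and 38.4 RPKM, followed by Ttyh3 004963 (26.1 RPKM), from a chloride channel family gene, and Nfix 006343 (26.0). Tnrc6c 000818, from a gene of the microRNA silencing complex, 6330407J23Rik 000540 and Lmnb1 003012, from a gene of the nuclear lamina, had 23.3, 22.4 and 22.1 RPKM. Neighbours in this order differed by less than the larger of their SDs over the 9 libraries.

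The make-up of the counted length moved with particular libraries. For each member, log2(CPM + 1) in a library was compared with the mean of the other 2 replicates of that cell type. Among members of exons alone the median difference was -0.74 in PP replicate 3, with 11 of 70 members above 0, and 0.01 in N replicate 1. Among members with introns it was 0.19 in PP replicate 3 and 0.52 in N replicate 1, with 105 of 135 above 0, but -0.36 in N replicate 2. In the 3 DP libraries the medians of both classes lay between -0.10 and 0.07. PP replicate 3 and N replicate 1 were also those with the fewest counts outside the high-count entries, 83572 and 102958. The part of these differences between libraries in the results below was not tested beyond leaving libraries out.

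**Figure D3:**
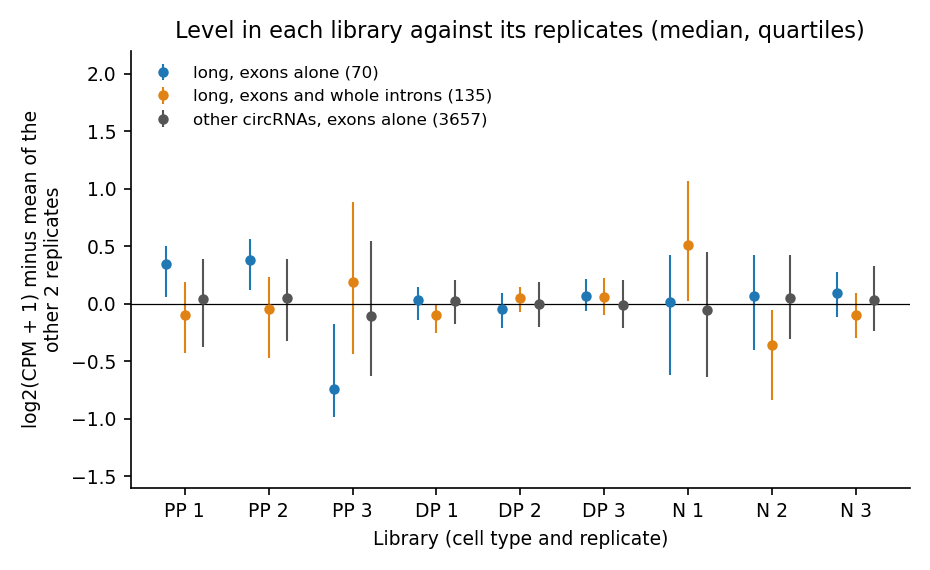
Points show the median, and lines the quartiles, of log2(CPM + 1) in each library minus the mean of the other 2 replicates of its cell type, for 70 long circRNAs of exons alone, 135 with whole introns and 3657 other circRNAs of exons alone. Members of exons alone lie low in PP replicate 3 (-0.74), and members with introns lie high in N replicate 1 (0.52).

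All 219 members passed the filter on low counts and were among the 4406 circRNAs tested. The edgeR quasi-likelihood test over any difference among PP, DP and N, with Benjamini-Hochberg adjustment over all 4406, called 93 members, against 25% of all circRNAs tested. Without N replicate 3 it called 56 members. Members had more counts than most circRNAs. In the upper of 3 equal classes of mean CPM, which held 205 of the 219 members, N vs PP called 43.4% of members and 29.9% of the others, a difference that was not tested.

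The comparison of DP with PP asks what differs when a progenitor commits to making neurons. Of 219 members, 10 passed the test, 9 higher and 1 lower in DP, against 1.86% of all circRNAs tested (1.48% higher and 0.386% lower). An unadjusted p under 0.05 in the edgeR test was found for 50 members. No share over all circRNAs tested was set beside this number, so that it is not evidence of further change. Replicates of the cell types did not overlap in 82 members (37.4%), against 19.3% of all tested. The 10 were a pair each from Myt1l and Robo2, and Rasgef1b, 6330407J23Rik, Elavl4, Tnrc6c, Acly and, with the opposite direction, Ptprz1.

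Myt1l, which encodes a neuronal zinc finger transcription factor, gave the largest rise. Myt1l 001319 begins at exon 10 of 25, holds 12 exons and 2563 exonic bases, and had 0.259, 0.323 and 1.39 CPM in PP, 6.11, 6.90 and 6.95 in DP and 36.7, 52.6 and 47.9 in N. The 3 cell types did not overlap in either step. The log2 FC was 3.64 ± 0.50 (SE) from PP to DP (edgeR adjusted p = 0.0013) and 2.79 ± 0.34 from DP to N (adjusted p = 9.77e-05). Without PP replicate 3 the former was 4.41. The PP libraries held 1, 2 and 3 counts. Myt1l 001318, which starts at the same exon and overlaps it, rose in both steps as well, with log2 FCs of 3.44 (4.21 without PP replicate 3) and 2.84.

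Robo2, a receptor for the axon guidance cue Slit, also rose in both steps. Robo2 002429 holds 15 exons and had 1.56, 2.90 and 2.79 CPM in PP, 14.6, 11.5 and 15.6 in DP and 25.7, 42.9 and 35.0 in N. Its log2 FC was 2.51 ± 0.37 in DP vs PP (edgeR adjusted p = 0.0019) and 1.32 in N vs DP (adjusted p = 0.0075), and the latter call was lost without DP replicate 2 (adjusted p = 0.065). Robo2 002428, which overlaps it, was also called in both steps, and its call in N vs DP was lost without DP replicate 1 or 2 or N replicate 2 (0.051 to 0.091). Tnrc6c 000818, with 4 exons of which 1 has 2601 bases, had 21.8, 22.1 and 20.9 CPM in PP, 44.1, 56.7 and 75.2 in DP and 148, 107 and 145 in N. Its rise of 1.44 (log2) in DP vs PP (adjusted p = 0.029) was no longer called when PP replicate 1 or 2, any DP library or N replicate 3 was left out (adjusted p 0.0605 to 0.19). Its call in N vs DP (log2 FC 1.19) was lost without DP replicate 1 or 2 or N replicate 3 (0.060 to 0.097). 6330407J23Rik 000540, now named Soga3, had 9.86, 9.35 and 9.29 CPM in PP, 25.1, 27.2 and 41.5 in DP and 134, 58.8 and 89.8 in N, and its call in DP vs PP was lost without any of the same 6 libraries (0.058 to 0.18).

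The other members called higher in DP had no called rise in N vs DP. Rasgef1b 005253, from a Ras exchange factor gene, had 4.93, 3.39 and 1.39 CPM in PP, 19.6, 20.3 and 19.6 in DP and 27.0, 15.3 and 20.0 in N, a rise in DP vs PP (log2 FC 2.53, edgeR adjusted p = 0.0022) with an estimate of 0.05 in N vs DP. Elavl4 004254, from the gene of a neuronal RNA-binding protein, had 6.48, 5.81 and 5.11 CPM in PP, 19.1, 19.5 and 18.0 in DP and 7.08, 11.3 and 11.5 in N. DP stood above both other cell types without overlap. The log2 FC was 1.69 in DP vs PP (adjusted p = 0.0084) and -0.89 in N vs DP (adjusted p = 0.040), and the fall held only without N replicate 1 or without PP replicate 3, among the 9 libraries left out in turn. Leaving out PP replicate 2 ended the call of the rise (adjusted p = 0.061). Acly 000739, from the gene of ATP citrate lyase, had 22.8, 21.9 and 18.1 CPM in PP, 45.6, 48.7 and 49.9 in DP and 42.0, 32.3 and 38.7 in N. It rose by 1.19 (log2) in DP vs PP (adjusted p = 0.045), a call lost without PP replicate 1 or 2, any DP library or N replicate 3 (0.085 to 0.20).

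Ptprz1 005387 was the single member called lower in DP. Ptprz1 encodes a receptor tyrosine phosphatase of radial glia, and this member holds 3 exons, 1 of them with 3547 bases. Its counted length of 8313 bases also includes 1 of 2 introns. The paper lists primers for cloning this member and detected no intron in the circRNAs that it cloned. This member had 84.3, 90.9 and 59.0 CPM in PP, 23.9, 33.5 and 18.7 in DP and 30.1, 63.7 and 48.6 in N. All PP libraries stood above all DP libraries, whereas N overlapped with both. The log2 FC in DP vs PP was -1.62 ± 0.36 (edgeR adjusted p = 0.032), and the call was lost without PP replicate 1 or 2, any DP library or N replicate 3 (adjusted p 0.064 to 0.23). In N vs DP it was 0.91 (adjusted p = 0.094).

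The call count in DP vs PP depended on the libraries. It was 28 without PP replicate 3, 17 without N replicate 1, 10 without N replicate 2, 5 without PP replicate 2 and 6 without any 1 of the other 5 libraries, and 78 (53 higher, 25 lower) without PP replicate 3 and N replicate 1 together, which included the 10. Of the 10, 5 were called whichever library was left out, and these were the pairs of Myt1l and Robo2 and Rasgef1b. Scaled by total counts, the 2 Myt1l members alone remained called.

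**Figure D4:**
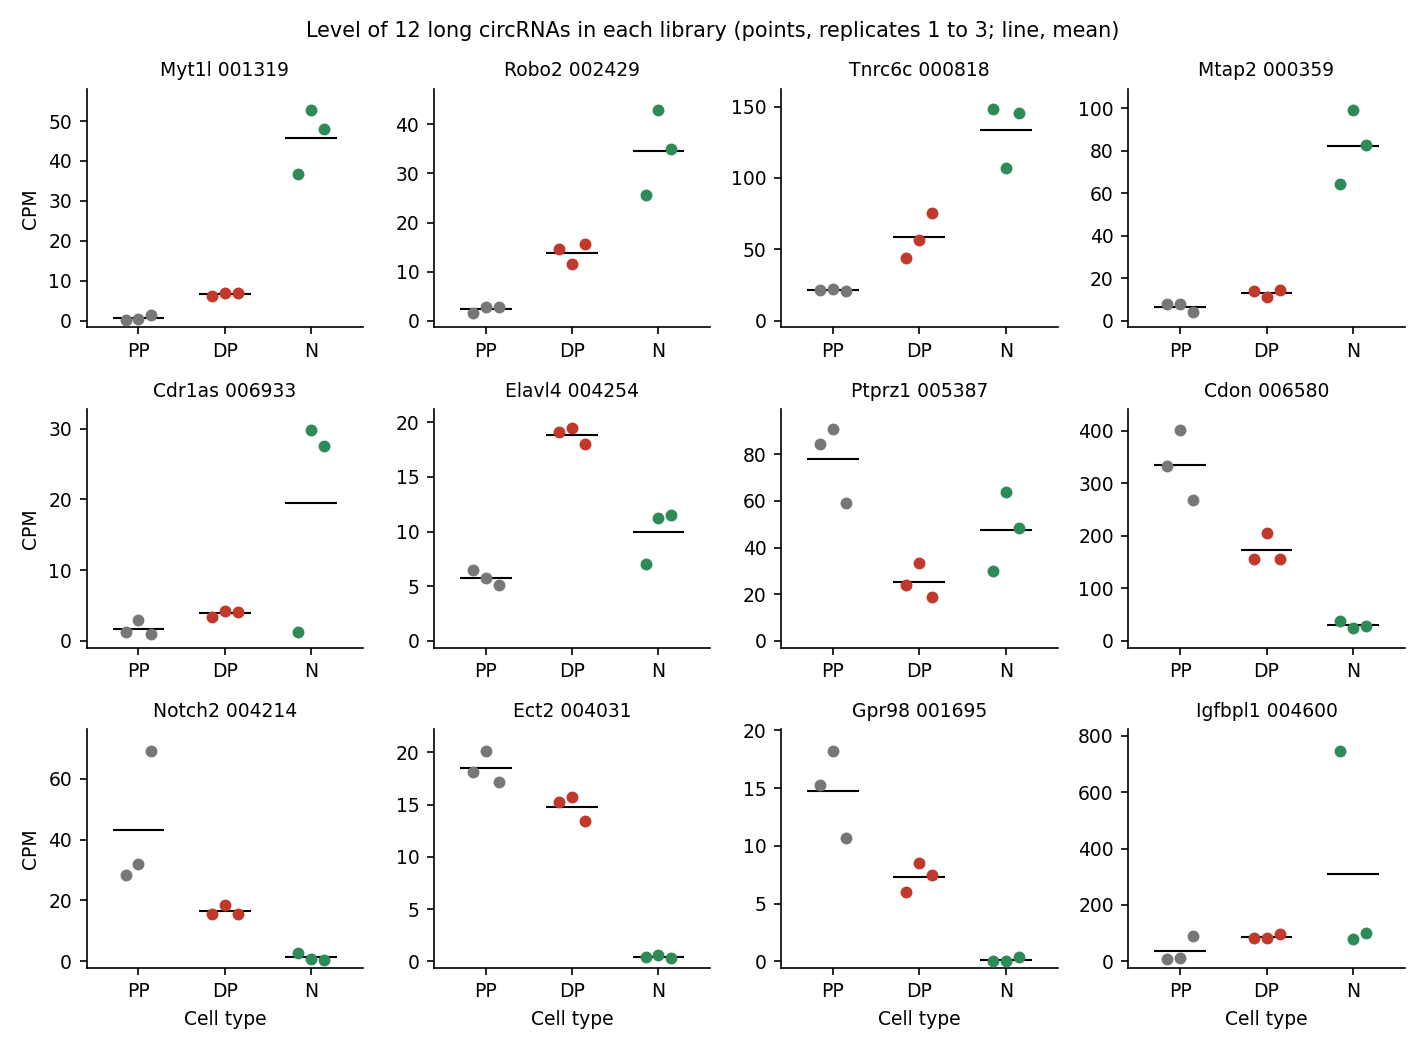
CPM of 12 long circRNAs in each library, with points for replicates 1 to 3 from left to right in each cell type and a line for the mean. Myt1l, Robo2 and Tnrc6c step up from PP to DP to N, Elavl4 is highest and Ptprz1 lowest in DP, Cdon, Notch2, Ect2 and Gpr98 are lowest in N, and N replicate 1 stands apart for Cdr1as and Igfbpl1.

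The comparison of N with DP asks what differs between a committed progenitor and its neuron. Here 56 members passed the test, 25.6% of 219 against 18.8% of all circRNAs tested. Of these, 23 were higher in N (9.03% of all tested) and 33 lower (9.80%). Replicates did not overlap in 101 members (46.1%), against 38.8% of all tested. Without N replicate 3, 37 members were called. Scaling by total counts in place of TMM called 4 higher and 26 lower, as it moved the median log2 FC of all circRNAs tested from -0.02 to -0.37. With that scaling the calls of Robo2, Tnrc6c, 6330407J23Rik, D630045J12Rik, Dlgap4, Rtn4, Cdr1as, Elavl4, Zfhx4, Meis2 and Nedd4 in N vs DP were lost, with no estimate of the opposite sign.

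Mtap2 000359, now named Map2, comes from the gene of a dendritic microtubule-associated protein and gave the largest rise in N vs DP among members at or above the median level. It holds 2 exons, 1 of them with 3741 bases, and is entirely coding. It had 7.78, 8.06 and 4.18 CPM in PP, 13.9, 11.3 and 14.6 in DP and 64.2, 99.1 and 82.9 in N, with no overlap in either step. The log2 FC was 2.63 ± 0.33 in N vs DP (edgeR adjusted p = 0.000106) and 0.95 in DP vs PP, where it was not called (adjusted p = 0.24). D630045J12Rik 005440, with 16 exons, rose by 1.94 (log2) and the other 2 members of that gene were also called. Dlgap4 003522, from a gene of a postsynaptic scaffold protein, had 23.3, 24.4 and 34.5 CPM in DP and 170, 59.6 and 76.1 in N (log2 FC 1.89). Rtn4 000894, which holds 2 exons of the gene of the neurite outgrowth inhibitor Nogo, had 27.8, 28.8 and 24.3 CPM in DP and 29.7, 89.9 and 81.4 in N, with N replicate 1 close to DP. Its call in N vs DP (adjusted p = 0.041) was lost without PP replicate 1, any DP library, N replicate 2 or N replicate 3 (0.053 to 0.15).

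The largest falls were those of members with few counts in N. Ect2 encodes a protein required for cytokinesis, and Ect2 004031, with 20 exons, had 18.2, 20.2 and 17.2 CPM in PP, 15.3, 15.8 and 13.4 in DP and 0.443, 0.581 and 0.328 in N. PP and DP stood far above N, which held 1, 5 and 2 counts. Its log2 FC was -4.93 ± 0.39 in N vs DP (edgeR adjusted p = 8.55e-06). Gpr98, now named Adgrv1, encodes a very large adhesion receptor, and Gpr98 001695 begins at exon 64 of 90 and holds 11 exons. It had 15.3, 18.2 and 10.7 CPM in PP, 6.00, 8.50 and 7.45 in DP and 0, 0 and 0.328 in N, or 2 counts in all 3 N libraries, both in replicate 3. Its level was 61.7 times higher in DP than in N, with an exact 95% counting interval of 16.8 to 513, and 135 times higher in PP, with an interval of 37.0 to 1126. Notch2 004214, from a Notch receptor gene, had 28.3, 32.1 and 69.2 CPM in PP, 15.6, 18.6 and 15.4 in DP and 2.66, 0.697 and 0.492 in N, again without overlap (log2 FC -4.06 ± 0.55, adjusted p = 0.00017, and -4.73 without N replicate 1).

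Cdon 006577 to 006583 moved as a block. All 7 were lower in N, by -2.94 to -2.50 in N vs DP (edgeR adjusted p 8.87e-05 to 0.000282) and -4.10 to -3.32 in N vs PP. Cdon 006580, which contains exon 2 with the start codon, had 334, 402 and 268 CPM in PP, 156, 205 and 156 in DP and 38.5, 24.3 and 27.7 in N. Its counted length includes 12 of the 16 introns in its span. The estimates of DP vs PP were -1.16 to -0.82 and none was called. Both Spata13 members, from a gene of a Rac and Cdc42 exchange factor, were lower still, at -3.92 and -4.07 in N vs DP. Chd7 004698 and Chd7 004697, from a chromatin remodelling gene and holding its start codon, had log2 FCs of -2.17 and -2.08. Tmpo 000711, from a gene of the nuclear envelope, had -2.09, Mms22l 004544, from a replication fork repair gene, -2.48, and Pard3 006149, from a cell polarity gene, -1.74. Meis2 003365 fell by 1.17 and Nedd4 006742, from the gene of a ubiquitin ligase, by 0.99 (log2). The call of Meis2 003365 held without PP replicate 2 or 3 and was lost without any of the other 7 libraries (adjusted p 0.050 to 0.11), and that of Nedd4 was lost without any DP library or N replicate 2 or 3 (0.052 to 0.13).

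The calls in N vs DP were also counted by the make-up of the counted length. Of 70 members of exons alone, 17 were higher and 11 lower in N, with a median log2 FC of 0.31. Of 135 members with introns, 2 were higher and 21 lower, with a median of -0.07, and over all circRNAs tested the median was -0.02. The difference between the classes was not tested. With total counts the split was 3 higher and 8 lower for exons alone and 0 higher and 17 lower for members with introns. Without PP replicate 3 and N replicate 1 the counts were 24 higher and 15 lower for exons alone and 12 higher and 52 lower for members with introns. Members with introns were the ones that lay high in N replicate 1.

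**Figure D5:**
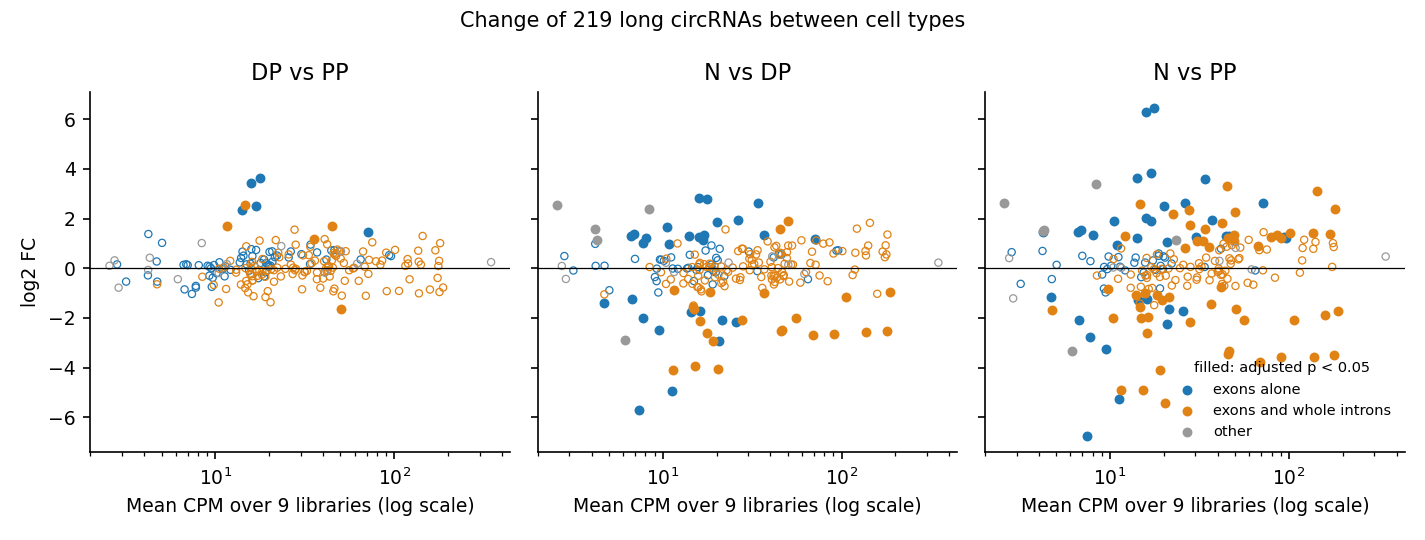
Log2 FC of the 219 long circRNAs in DP vs PP, N vs DP and N vs PP against their mean CPM over 9 libraries (log scale). Filled points passed the edgeR test (10, 56 and 96 members) and colours give the make-up of the counted length. In N vs DP, 17 of the 23 higher calls are of exons alone. Of the 33 lower calls, 21 have introns in their counted length, as do 61.6% of all members.

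The comparison of N with PP spans both steps of the lineage. It called 96 members, 43.8% of 219 against 28.1% of all circRNAs tested, with 54 higher in N (13.7% of all tested) and 42 lower (14.4%). Replicates did not overlap in 110 members (50.2%), against 36.5% of all tested. The call held for 71 of the 96 whichever library was left out, 40 of them higher and 31 lower. The number of calls was 78 to 118 in those fits. The split ranged from 63 higher and 34 lower without N replicate 2 to 47 higher and 50 lower without N replicate 1. It was 60 and 43 with DESeq2, 28 and 37 with at least 10 counts in every library, and 36 and 37 with the 2 cell types alone. In the last, the calls of Heatr5b, Camsap1, Igfbpl1 and Acly were lost. With total counts 16 were higher and 36 lower, where the median of all circRNAs tested was -0.37. There the calls of Tcf20, Heatr5b, Camsap1, Rtn4, Acly and Xpo1 were lost.

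Among members at or above the median level whose replicates did not overlap, the largest rises in N vs PP were those of Mtap2 (log2 FC 3.58 ± 0.35, edgeR adjusted p = 7.38e-06), 6330407J23Rik (3.30), Tnrc6c (2.62), D630045J12Rik (2.62) and Jarid2 001619. Jarid2 encodes a component of the PRC2 complex, and this member holds 489 exonic bases in 3 exons. Its counted length of 26352 bases also includes 1 of 2 introns. This member had 49.3, 42.3 and 108 CPM in PP, 85.1, 149 and 166 in DP and 666, 123 and 237 in N. N replicate 1 was by far the highest, and the log2 FC of 2.37 (adjusted p = 0.0060) was 1.45 without it (adjusted p = 0.025). Igfbpl1 004600 was called in N vs PP (log2 FC 3.12, adjusted p = 0.019), but not without N replicate 1 (1.38, adjusted p = 0.18), PP replicate 1 (0.068) or PP replicate 2 (0.059), and its estimate was 4.96 without PP replicate 3. Tcf20 002180, a single exon of 5772 bases that holds the start codon, had 72.6, 58.5 and 44.1 CPM in PP, 86.0, 80.3 and 87.2 in DP and 153, 126 and 136 in N, an ordered rise without overlap (log2 FC 1.24, adjusted p = 0.0059). Heatr5b 002831, the member with the most exons, rose by 1.21 (adjusted p = 0.0099). Neither Zfp462 004623 nor Bptf 000778 was called in any comparison, with estimates in N vs PP of 0.78 and -0.24.

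Among members lower in N than in PP, Cdon 006581 fell by 3.77, Tmpo 000711 by 2.16, Meis2 003365 by 2.09, Chd7 004698 by 1.73 and Tkt 001827, from the gene of transketolase, by 1.64 (log2). The estimate for Tkt was -0.85 without PP replicate 3 (edgeR adjusted p = 0.024), the library in which it was highest. Meis2 003368, the second longest member, had 316, 381 and 198 CPM in PP, 159, 174 and 190 in DP and 91.2, 79.7 and 101 in N. The 3 Meis2 members, which overlap, were all called in N vs PP (edgeR adjusted p 0.00092 to 0.0010).

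Cdr1as 006933 was counted over its whole span of 2927 bases on the X chromosome. It had 1.30, 2.90 and 0.929 CPM in PP, 3.39, 4.19 and 4.095 in DP and 1.33, 29.8 and 27.6 in N, where replicate 1 held only 3 counts and the others 256 and 168. N replicate 1 thus lay within the range of PP, while the other N libraries stood above every PP and DP library. The log2 FC was 3.40 ± 0.73 in N vs PP (edgeR adjusted p = 0.0028), 3.88 without N replicate 1 and 4.11 without PP replicate 2. In N vs DP it was 2.39 (adjusted p = 0.015), and this call was lost without any DP library, N replicate 2 or N replicate 3 (0.060 to 0.076). Per length it was among the less abundant members, at 2.86 RPKM.

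Cdr1as differed from the other members in its matches to miR-7. The mature miR-7 sequences of RefSeq (GRCm38.p6) are shown with bases 2 to 8, the seed, in capitals, followed by the first 2 matches in Cdr1as with GTCTTCC, the complement of the seed, in capitals.
mmu-miR-7a-5p: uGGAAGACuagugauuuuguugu
mmu-miR-7b-5p: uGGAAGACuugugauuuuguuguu
Cdr1as position 26: ccagtaccaagGTCTTCCaaca
Cdr1as position 44: aacatctccagGTCTTCCagca

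On the transcribed strand, GTCTTCC occurred 123 times in the span of Cdr1as, or 42.0 times per kilobase. It occurred at least once in the span of 141 of the 219 members, with a median of 0.0704 per kilobase, and the next highest density was 1.002 per kilobase in Igfbpl1. The spans include introns, and a match is a description of the sequence only.

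By the steps that passed the test, 6 members rose in both (2.74%, against 0.567% of all tested), which were the pairs of Myt1l and Robo2, Tnrc6c and 6330407J23Rik. Elavl4 rose and then fell, 2 rose without a further call, 17 were called only as a rise (7.76% against 8.42%) and 32 only as a fall (14.6% against 9.51%) in the second step, Ptprz1 only as a fall in the first, and 160 (73.1%, against 80.2% of all tested) had no called step. By FC alone, at least 1.5 or at most 0.67 with DESeq2 and no p, 87 members (39.7%) changed in neither step against 39.6% of all circRNAs outside the high-count entries. Steps up in both were found in 27 members (12.3% against 6.40%), down in both in 20 (9.13% against 7.44%), up then down in 5 (2.28% against 1.54%) and down then up in 4 (1.83% against 4.32%).

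The parental genes were grouped by 8 lists of functions, which held 94 of the 219 members. Over all circRNAs tested, 13.7% were called higher and 14.4% lower in N vs PP. These shares were 9.03% and 9.80% in N vs DP, and 1.48% and 0.386% in DP vs PP. They apply beside every list below, and no list was tested against them. Of 21 members from 12 genes of neuronal differentiation, axons and synapses, 18 were higher and 1 lower in N vs PP, 7 higher and 2 lower in N vs DP and 5 higher in DP vs PP. The median log2 FC of this list in N vs PP was 1.40, against -0.09 over all circRNAs tested. The genes of the lists were chosen with earlier results of these data known, so that these numbers are not independent support. The 18 included 5 of the 6 Auts2 members, which overlap, both members of Odz4 (now Tenm4, a teneurin of synapses; 1.80 and 1.73) and both of Ptprs (a receptor phosphatase of axons; 1.39 and 1.40). The member that fell was Zfhx4 004074, from a homeobox transcription factor gene, with 16.9, 19.7 and 3.71 CPM in PP, 7.01, 7.76 and 9.68 in DP and 0.443, 2.67 and 2.13 in N (log2 FC -2.78, edgeR adjusted p = 0.0014). Its call in N vs DP was lost without DP replicate 3 or N replicate 3 (0.055 and 0.064).

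Of 14 members from 7 progenitor and radial glia genes, 5 were lower and 2 higher in N vs PP, 4 lower in N vs DP and 1 lower in DP vs PP. The 5 were Gpr98, Notch2 and the 3 overlapping Meis2 members, and the 2 were Nfix 006341 and Nfix 006342 (log2 FC 1.22 and 1.43), of a transcription factor of radial glia. The median of the list in N vs PP was 0.36. Of 31 members from 22 genes of chromatin and transcription regulators, 6 were higher and 4 lower in N vs PP. Over all circRNAs tested these shares were 13.7% and 14.4%, and the difference was not tested. In N vs DP 1 member of the list was higher and 3 lower, and none was called in DP vs PP. The median of the list in N vs PP was -0.06. The higher ones included the pairs of Tcf20 and Tet3, a DNA demethylation enzyme (1.28 each), and the lower ones were the pairs of Chd7 and Chd2. Ezh2, the PRC2 methyltransferase, gave 3 members with estimates of -0.63 to -0.48 in N vs PP, none called.

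The other lists held few members. Of 12 members from 8 RNA-binding and RNA-processing genes, Tnrc6c was called higher in all 3 comparisons, and 3 were lower in N vs PP, among them Xpo1 000864 of the nuclear export receptor (log2 FC -1.09, edgeR adjusted p = 0.010, and 0.051 without N replicate 3). Of 8 zinc finger members 1, Zfhx4, was lower in N vs DP and N vs PP. Of 4 members of cytoskeleton and scaffold genes, 2 were higher in N vs PP, Mtap2 and Camsap1 003676 of a microtubule minus-end protein (1.24), and Mtap2 was also higher in N vs DP. Of 4 members of ubiquitin and SUMO genes, Nedd4 was lower in N vs DP and N vs PP. Of 2 cell cycle members, Ect2 was lower in both, and Cenpj 001902, of a centriole protein, had estimates of 1.02 in DP vs PP and -0.88 in N vs DP without a call.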

How the data were processed

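The authors sequenced RNase R-treated RNA as strand-specific single-end libraries, aligned it to mm9 with gsnap, predicted circRNAs with find_circ and counted reads with featureCounts on exon and intron features over an RPKM threshold. The processing notes of the submitters name bcl2fastq 1.8.4 and Subread 1.6.0. The deposited values are raw counts per circRNA and library with a counted length, and no normalization by the authors. A read anywhere on a counted feature adds to the count. How reads on overlapping entries or on either strand were assigned is not given in the sources used here.

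The 27 entries set aside (CiCo_mm9_circ_004999 and those within 1 interval of chromosome 17) stayed in the fit. CPM used TMM effective library sizes. One model over all 9 libraries, with cell type as its only term, was fitted with edgeR 4.0.16 (filterByExpr, quasi-likelihood test, Benjamini-Hochberg, threshold 0.05) in R 4.3.3. DESeq2 1.42.0 was an alternative and gave the FC patterns. Exons and introns were taken from GENCODE vM1 on mm9, where the deposited length counted each exon with 1 extra base. Older gene names were matched to RefSeq synonyms. The edgeR fit was tested on simulated data with changes set in N. There N vs PP called 17 of 95 circRNAs changed 2-fold (17.9%) and 82 of 98 changed 4-fold (83.7%). It also called 5 of 4072 unchanged ones. These rates are over all 4406 circRNAs tested. Members had a median of 1195 counts in total against 165 for the others, so that the rates are not those of members. Apart from the set changes, the simulated libraries differed in expected level only by total counts, unlike the real ones. A member without a call may still have changed. Libraries were grouped by reporter, and nothing states whether replicates came from separate litters, so that p-values measure the spread between these libraries.

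The set of long circRNAs was fixed by counted length alone, which depends on the expression threshold for features. The gene lists and the rules for naming members were set with earlier results of these data known. Named were, for each comparison and direction, up to 5 called members with the largest log2 FC (1 per gene, mean CPM at or above the members' median, replicates without overlap), the 8 most abundant per length, the 5 longest, the 5 with most exonic bases, up to 2 per list, Cdr1as, Ptprz1 and the neighbours of the limit. Robo2, Rasgef1b, Elavl4, Spata13, Mms22l, Pard3, Cenpj and the examples of genes with several members were named after their values were seen. The alternatives were DESeq2, RLE, total counts, no or a stricter filter, a replicate block, libraries left out, other limits of length, exonic bases in place of counted length, 1 member per overlapping group, the 2 cell types alone and a test against an FC of 1.5. Some results of single genes are not reported here.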

Additional observations from a re-analysis of the deposited data

How the results depend on the processing

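The called members named in the text and tested singly kept their direction under every alternative run for them. DESeq2 called 19, 63 and 103 members in DP vs PP, N vs DP and N vs PP (10, 56 and 96 with edgeR). Scaling by total counts called 2, 30 and 52, and 49 over any cell types, and moved the split to 4 higher and 26 lower in N vs DP and 16 higher and 36 lower in N vs PP, since it shifted the median log2 FC of all circRNAs tested to -0.37 in both. With at least 10 counts in every library, 176 members remained and 4, 25, 65 and 48 were called. Without PP replicate 3 and N replicate 1, 78, 109, 135 and 148 were called. Leaving out 1 library gave 5 to 28 in DP vs PP, 37 to 79 in N vs DP, 78 to 118 in N vs PP and 56 to 117 over any cell types. The lowest numbers came without PP replicate 2 in the first and without N replicate 3 in the others, and the highest without PP replicate 3. A test against an FC of 1.5 called 6 in DP vs PP. With the 2 cell types alone, 12, 64 and 73 were called, with 36 higher and 37 lower in N vs PP. A limit of 1500 bases (405 members) gave 20, 104, 152 and 149, a limit of 3000 bases (111 members) 2, 28, 48 and 46, and annotated exonic bases of 2000 or more (97 circRNAs) 6, 34, 45 and 45, as the number of members changed. The share of counts was 18.6% in PP, 18.4% in DP and 18.1% in N with a limit of 3000 bases, and 15.9%, 16.9% and 17.5% with 1 member per overlapping group. Without 1 library it was 23.2% to 25.2% in PP, 24.0% to 25.2% in DP and 22.3% to 26.5% in N. The ratio of the median RPKM of members to that of the other circRNAs was 1.04 by counted length and 2.50 by annotated exonic bases. The latter can overstate members, as their counts may include reads on introns. For the members tested singly, 1422 alternative values kept their call and 155 lost it.

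With a replicate block, 7, 49 and 86 members were called, and 73 over any cell types. Libraries of the same number did not deviate together more than others (correlations from -0.24 to 0.28, mean -0.03, against 0.02 between different numbers). With so few libraries, these correlations cannot decide whether the numbers pair the samples.

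Between 83572 and 287983 counts per library lay outside the high-count entries, and PP replicate 3 and N replicate 1 were the shallowest. The effect of this depth on precision was not tested.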
